A study of Arabidopsis thaliana with 38 samples.

Results

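The 32 genes followed here are carried by the plastid genome of Arabidopsis thaliana and encode 9 large-subunit and 10 small-subunit ribosomal proteins, 4 subunits of the plastid RNA polymerase and 9 proteins of other functions. They were chosen by name, and only probe sets annotated to the plastid gene were taken. The 5 probe sets of mitochondrial genes with the same names were left out. The genes had 33 probe sets among the 22746 tested, with 1 probe set per gene except rps12, which had 2 (244939_at and 244940_at). All 33 were tested, and rpoB was the only one with a mean below 2.98, the level of a filter on dim probe sets.

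The series followed cold-regulated transcripts, their polysome loading and the mRNAs recovered with CSP1, a cold shock domain protein that binds RNA. Rosettes of 25-day-old Col-0 plants were profiled on 38 Affymetrix ATH1 arrays in 16 groups. Cold plants spent 12 h at 4 °C under light of about 50 uE, and non-stress plants were kept at 23 °C under about 100 uE, so that temperature and light cannot be told apart. There were 10 arrays of RNA from CSP1 immunopurification (CSP1-IP), 14 of polysomal RNA and 14 of total RNA. The mutant atcsp1-1 had 8 arrays, 2 per group, of polysomal and total RNA. CSP1-FH, a line of tagged CSP1 under the constitutive viral 35S promoter (35S:AtCSP1-FH#11), had 12 arrays, 2 per group, of all 3 pools. HF-RPL18, a line of a tagged cytosolic ribosomal protein under the same promoter (35S:HF-RPL18#12-2-4), had 18 arrays, 3 per group, of all 3 pools. Each transgene is represented by 1 line, and untransformed wild type was not analysed here.

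Plastids keep a small genome of bacterial descent with its own transcription and translation machinery. The plastid-encoded polymerase is a bacterial-type enzyme whose core subunits come from rpoA, rpoB, rpoC1 and rpoC2, and the plastid ribosome is assembled from both plastid-encoded and imported nuclear-encoded proteins. Most plastid genes are transcribed in clusters and processed after transcription, and their mRNAs are translated inside the organelle. The other genes encode ClpP1, the plastid-encoded proteolytic subunit of the Clp protease (clpP), a subunit of acetyl-CoA carboxylase (accD), a maturase for intron splicing (matK), a protein of cytochrome c maturation (ccsA), an envelope membrane protein (cemA), 2 large open reading frames linked to protein import (ycf1 and ycf2) and 2 factors of photosystem I assembly (ycf3 and ycf4).

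All values are RMA log2 values per probe set. Differences are log2 differences with the standard error (SE) from a limma model fitted on all 38 arrays, and a probe set was called at a Benjamini-Hochberg adjusted p below 0.05 over all probe sets tested. The nuclear photosynthesis gene LHCB4.1 lay between 12.72 and 13.11 on total arrays, no marker of inflorescence or phloem had a named probe set, and CSP1 itself had 0 named probe sets, so the targeted gene was not checked. Array medians over all probe sets lay between 4.24 and 4.52. CSP1-IP arrays had a narrower spread over probe sets (SD 1.83 to 2.14) than polysomal arrays (2.22 to 2.31) and total arrays (2.27 to 2.32). The difference between the 3′ and 5′ GAPDH control probe sets, a measure of how far labelled RNA is biased to 3′ ends, had a median of 6.90 on CSP1-IP arrays (5.02 to 7.60), 1.47 on polysomal arrays and 1.29 on total arrays. Labelling of CSP1-IP RNA started from 3 to 6 ng, and the amount for the other pools is stated without a unit in the labels. In bulk RNA, fewer cells of a type and less RNA per cell cannot be told apart.

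The plastid mRNAs stood highest in total RNA and lowest in CSP1-IP RNA. The median of the 33 probe sets on an array was 5.56 to 7.94 on CSP1-IP arrays, 7.06 to 9.57 on polysomal arrays and 6.87 to 10.12 on total arrays. The other plastid genes were placed in the same order: the median of the 33 plastid photosynthesis genes was 5.51 to 7.57 on CSP1-IP arrays, 8.07 to 9.52 on polysomal arrays and 8.27 to 10.66 on total arrays. Mitochondrion-encoded genes had medians of 3.35 to 4.18, 3.02 to 3.46 and 2.99 to 3.48 in the same pools, all below the array medians over all probe sets. Total arrays of CSP1-FH replicate 1 stood apart: the median of the 33 probe sets was 7.17 on the cold array and 6.87 on the non-stress array, against 8.85 and 9.22 on the arrays of replicate 2. The plastid ndh genes, which encode the NADH dehydrogenase-like complex, had medians of 5.79 and 5.70 on the same replicate 1 arrays and 7.89 and 8.41 on those of replicate 2. The median of the nuclear photosynthesis genes was 13.00 and 12.82 on replicate 1, against 12.72 and 13.04 on replicate 2. The CSP1-IP cold array of CSP1-FH replicate 1 was also low, at 5.77 against 7.72 on replicate 2.

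**Figure D1:**
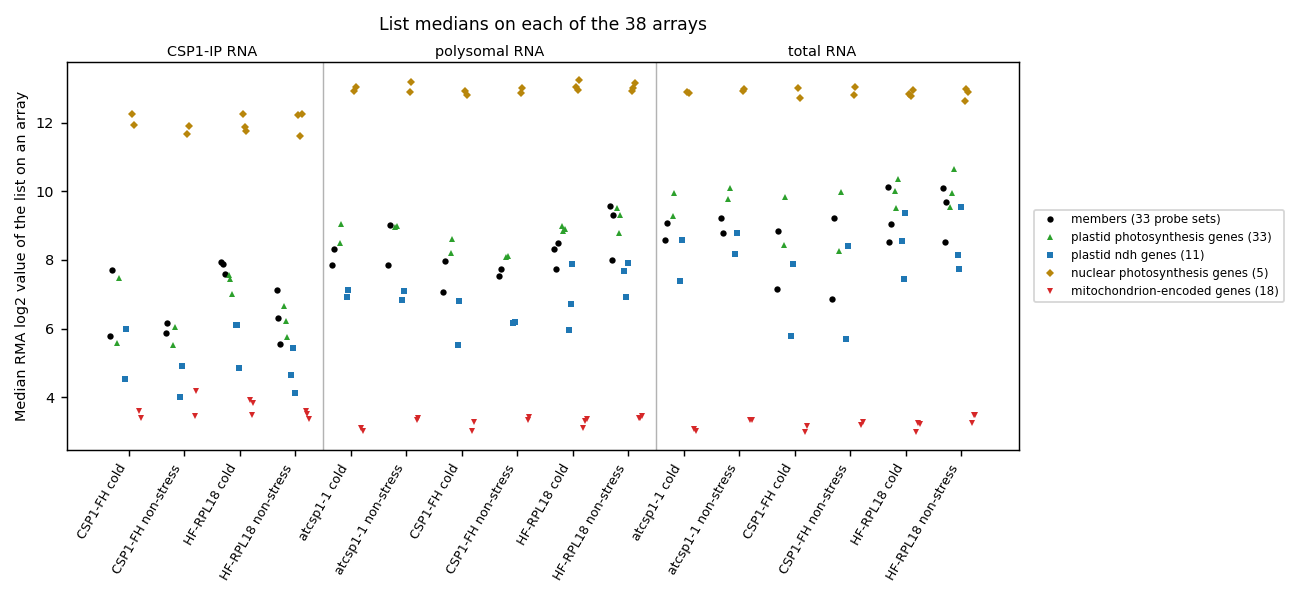
Median RMA log2 value (y axis) of 5 gene lists on each of the 38 arrays (1 point per array), by pool, line and condition (x axis). The points of the 33 plastid probe sets lie between 5.56 and 7.94 in CSP1-IP RNA and between 6.87 and 10.12 in total RNA, and the ndh medians lie between 4.01 and 6.10 in CSP1-IP RNA and between 5.70 and 9.54 in total RNA.

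Replicates of 1 group differed more in these genes than over all probe sets. The median within-group SD of the 33 probe sets was 0.83 in CSP1-IP RNA, 0.55 in polysomal RNA and 0.77 in total RNA, against 0.43, 0.23 and 0.19 over all probe sets in the same pools. The 18 mitochondrion-encoded probe sets had medians of 0.40, 0.22 and 0.23. The SD of the other plastid lists is not given here, so the wide spread is not read as particular to the 33. On the non-stress total arrays of HF-RPL18 the ndh median was 8.15, 7.74 and 9.54. The median of the photosynthesis genes was 9.54, 9.95 and 10.66, and that of the 33 probe sets 10.09, 8.52 and 9.70. In total RNA the smallest SD among the 33 was that of rpl2, a large-subunit protein, at 0.21, and the largest was that of rpl14 at 1.34. For rpl14 the total arrays of HF-RPL18 read 10.62, 7.47 and 9.58 in the cold and 10.12, 7.61 and 9.79 without stress. Array 2 was the lowest of 3 in both conditions, by more than any difference between conditions. The labels call the replicates biological. The p-values rest on 1 residual variance per probe set, pooled over all 16 groups. The wider spread of CSP1-IP arrays therefore also enters the comparisons within and between polysomal and total RNA. The narrower spread of polysomal and total arrays likewise enters the CSP1-IP comparisons, whose SE and p-values can then be too small.

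The comparison of CSP1-IP with total RNA asked which mRNAs were higher or lower in the CSP1-IP pool. The arrays include no mock immunopurification and no CSP1-IP RNA of the mutant atcsp1-1. RNA recovered through CSP1 therefore cannot be told from background RNA on the beads. No plastid probe set was called higher in CSP1-IP RNA in any of the 4 comparisons in the main fit. In CSP1-FH, 7 of 33 were lower in the cold and 16 without stress, with median differences of −0.99 and −1.51. In HF-RPL18, 14 were lower in the cold and 25 without stress, with medians of −0.86 and −2.26. Over all probe sets 14% and 17.2% were called lower in cold and non-stress CSP1-FH, and 23.8% and 17% in cold and non-stress HF-RPL18. The shares called higher in the same order were 13.6%, 19%, 32% and 14.7%, and those called in either direction 27.6%, 36.1%, 55.7% and 31.8%. The median over all probe sets in non-stress HF-RPL18 was 0.13. In cold HF-RPL18 array weights gave 0 higher and 5 lower of 33, with 7201 of 22746 probe sets called. With loess 1 was higher and 7 were lower, with 7078 called. The main fit called 12672. Leaving out CSP1-FH replicate 1 from all pools gave 3 lower in the cold and 19 without stress, where 11.1% and 23.8% of all probe sets were called. That sets 1 CSP1-FH array against 1, each assumed to vary like the other groups, and leaving out a single CSP1-FH array likewise leaves an arm of 1. With single arrays left out, the cold count was 4 without CSP1-IP array 1 and 13 without CSP1-IP array 2, and the non-stress count was 7 without total array 2.

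The envelope protein gene cemA had the largest difference in non-stress HF-RPL18. Its CSP1-IP arrays read 5.56, 6.25 and 4.68, against 10.49, 10.18 and 10.58 in total RNA, a difference of −4.92 (SE 0.57, limma adjusted p = 1.85e-07). In the cold the CSP1-IP arrays of HF-RPL18 read 6.47, 6.82 and 7.07, against 10.97, 9.76 and 10.68 in total RNA, a difference of −3.68 (SE 0.57, limma adjusted p = 8.22e-06). All CSP1-IP arrays lay below all total arrays in both conditions. In CSP1-FH, cemA read 4.54 and 6.96 in CSP1-IP against 8.21 and 10.15 in total RNA in the cold, and 5.22 and 5.06 against 7.89 and 10.64 without stress. The differences were −3.43 (limma adjusted p = 0.000625) and −4.13 (limma adjusted p = 4.69e-05), again with no overlap.

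Among large-subunit genes, 7 of 9 were lower in CSP1-IP of non-stress HF-RPL18 and 5 of 9 in the cold. The largest differences were those of rpl23, which encodes a protein at the exit of the ribosomal tunnel. In the cold its CSP1-IP arrays of HF-RPL18 read 8.01, 8.18 and 8.61, against 11.77, 11.05 and 11.56 in total RNA. Without stress they read 7.09, 7.56 and 5.80, against 11.77, 11.38 and 11.58. The groups did not overlap in either condition, with differences of −3.20 (SE 0.44, limma adjusted p = 2e-06) in the cold and −4.76 (SE 0.44, limma adjusted p = 6.79e-09) without stress. In CSP1-FH the differences of rpl23 were −4.38 in the cold and −4.52 without stress. The gene rpl22 differed by −3.27 and −4.25 in CSP1-FH and by −3.11 and −4.34 in HF-RPL18, each in the cold and without stress in turn. The gene rpl2, whose product lies at the peptidyl transferase centre, differed by −1.93 and −2.57 in CSP1-FH and by −1.26 and −2.56 in HF-RPL18, and was called in all 4 comparisons. Not called in either line were rpl20 (−1.13, adjusted p = 0.179 in non-stress HF-RPL18) and rpl32 (−0.92).

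Of the 11 small-subunit probe sets, 9 were lower in non-stress HF-RPL18 and 5 in the cold. The gene rps12 encodes a decoding-centre protein from a transcript that is spliced in trans, and both of its probe sets were lower in HF-RPL18. Probe set 244940_at differed by −4.02 in the cold and −4.56 without stress, and probe set 244939_at by −2.63 and −3.38. The gene rps2 differed by −2.63 (limma adjusted p = 0.000993) in the cold and −3.55 (limma adjusted p = 6.4e-05) without stress. The gene rps4, whose product helps to start assembly of the small subunit, was called without stress (−1.87, SE 0.39, limma adjusted p = 0.000516) and not in the cold (−0.34, limma adjusted p = 0.47). For rps14 and rps15 no call was made in either condition, with −0.42 and −0.50 in non-stress HF-RPL18. The values of rps14 were low in every pool (medians of 3.74 in CSP1-IP, 3.97 in polysomal and 4.46 in total RNA), which left little room for a drop.

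Among the polymerase genes, 2 of 4 were lower without stress. In non-stress HF-RPL18, rpoC1 (−2.21, SE 0.54, limma adjusted p = 0.00217) and rpoA (−1.34, SE 0.42, limma adjusted p = 0.0153) were lower, while rpoC2 stood at −1.30 and rpoB at 0.12. The dim probe set of rpoB, with a median of 2.82 in total RNA, left little room for a drop and enters the polymerase medians. In the cold 0 of 4 were called, with a median of 0.18. Among genes of other functions, 7 of 9 were lower without stress and 4 in the cold, among them clpP at −1.27 in the cold and −2.19 without stress. The maturase gene matK had overlapping arrays in HF-RPL18 without stress, at 11.17, 9.74 and 10.76 in CSP1-IP against 11.20, 10.60 and 11.63 in total RNA. Its cold arrays read 11.70, 11.34 and 11.33 in CSP1-IP and 11.05, 10.62 and 11.58 in total RNA, and its differences of 0.37 in the cold (limma adjusted p = 0.421) and −0.59 without stress (limma adjusted p = 0.26) were not called.

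**Figure D2:**
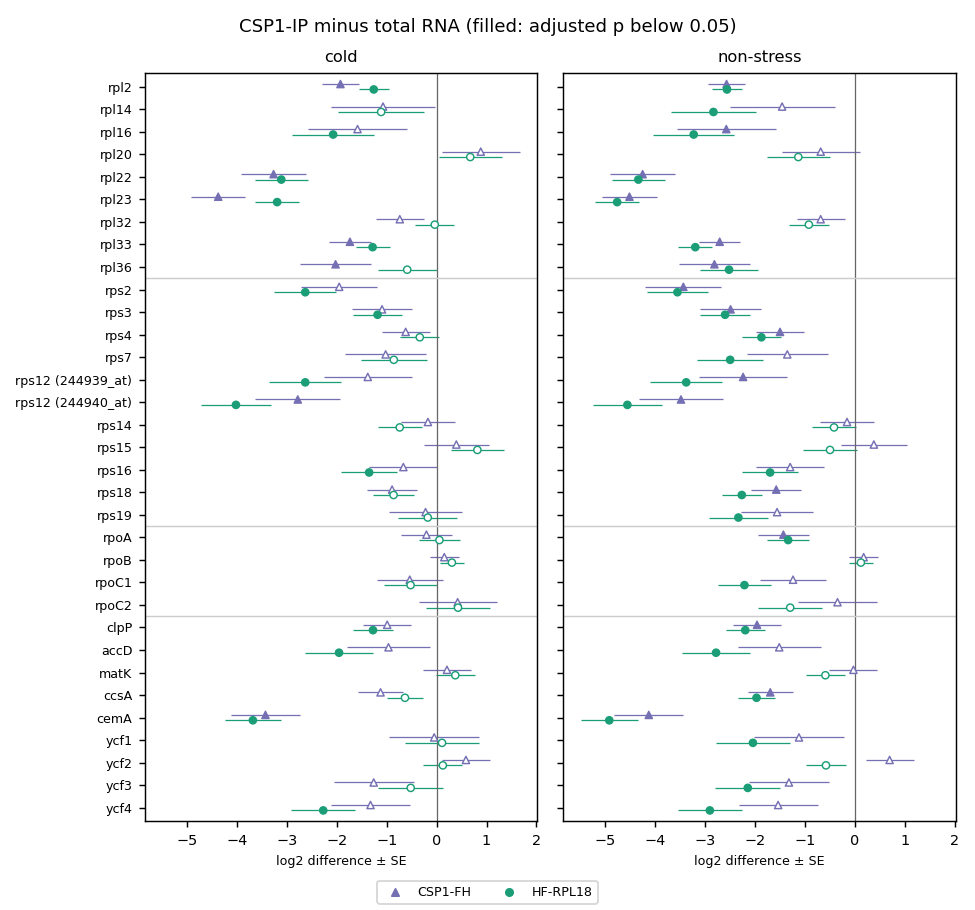
Difference of CSP1-IP minus total RNA (x axis, log2, bars are ± SE) for each of the 33 probe sets (y axis, grouped by role), in the cold (left) and without stress (right), for CSP1-FH and HF-RPL18. Filled points have a limma adjusted p below 0.05: all of them lie left of 0, from cemA at −4.92 in non-stress HF-RPL18, and matK lies at 0.37 in the cold and −0.59 without stress in the same line.

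Since the plastid lists moved together between pools, the differences were also taken relative to the median of the plastid genes on each array, a setting chosen after the data were seen. Centring shifts the difference of every probe set by the same amount, 3.19 in non-stress HF-RPL18, so changes of sign are set by the shift. The order of the differences among the members is the same on both scales. Centring each array also changes the spread between replicates, so calls depend on that spread as well as on the shift. For cold in total RNA averaged over lines, 1550 probe sets were called on that scale, against 5280 in the main fit. In non-stress HF-RPL18, 97.8% of all probe sets were called on it, with 12 members called above and 3 below the plastid median in place of 0 higher and 25 lower. In cold CSP1-FH it called 68.3%, with 9 members called above and 3 below in place of 0 higher and 7 lower. In non-stress HF-RPL18 matK stood at 2.60 relative to the plastid median, rpoA at 1.85, rps4 at 1.32 and rpl2 at 0.63, against −1.57 for rpl23.

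The other plastid and nuclear genes give the surroundings of this result. In non-stress HF-RPL18, 26 of 33 plastid photosynthesis genes and 9 of 11 ndh genes were lower in CSP1-IP, with medians of −2.89 and −1.90. Among nuclear genes of plastid ribosomal proteins, 7 of the 10 with a named probe set (of 41 listed) were lower, with a median of −1.28, and 4 of 5 measured nuclear Clp protease subunits were lower, with a median of −1.26. The 3′ bias of CSP1-IP arrays and their narrower value range move with the same contrast, and their part in the result was not tested. Whether plastid mRNAs were labelled as well in CSP1-IP RNA as in total RNA was also not tested. When the lines were averaged, a contrast chosen after values were seen, 17 probe sets were lower in the cold and 26 without stress (62.7% and 53.4% of all probe sets called in either direction, 25% and 22.9% lower). The averages of rpl23 were −3.79 in the cold and −4.64 without stress.

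CSP1-IP RNA was also set against polysomal RNA in HF-RPL18. In the cold 3 were higher and 4 lower, with a median of 0.20, while 47.6% of all probe sets were called (26.8% higher and 20.8% lower). Without stress 0 were higher and 21 lower, with a median of −1.75, and 30.6% of all probe sets were called (14.7% higher and 15.9% lower). The 4 lower in the cold were rps12 (244940_at, −2.38), cemA (−2.18), rpl22 (−2.10) and rps2 (−1.50), and without stress the same probe sets stood at −3.61, −4.00, −3.85 and −3.13. Leaving out CSP1-IP non-stress array 3 gave 13 calls without stress, and leaving out CSP1-IP or polysomal cold array 1 gave 3 in the cold. The difference between the conditions was not tested for this contrast.

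The members higher in cold CSP1-IP than in cold polysomal RNA were matK, rps4 and rpl20. The CSP1-IP arrays of matK read 11.70, 11.34 and 11.33, against 10.22, 10.08 and 11.14 in polysomal RNA, with no overlap and a difference of 0.98 (SE 0.39, limma adjusted p = 0.0406). For rps4 the values were 11.23, 11.60 and 11.52, against 10.12, 10.51 and 10.84, with no overlap and a difference of 0.96 (SE 0.39, limma adjusted p = 0.0454). For rpl20 the values were 7.59, 8.45 and 7.36, against 5.19, 5.98 and 7.41, so that 1 polysomal array lay inside the range of CSP1-IP, and the difference was 1.61 (SE 0.64, limma adjusted p = 0.0386). All 3 calls were lost when each array was centred on its median over all probe sets (0 higher and 4 lower), and none of the 33 was called with array weights.

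Polysome loading was followed by the difference of polysomal minus total RNA. Recovery of plastid polysomes on the gradients was not tested, so a lower value does not by itself mean less translation of these mRNAs. Single lines gave few calls: in the cold 0 of 33 in atcsp1-1, 0 in CSP1-FH and 2 lower in HF-RPL18, and without stress 0, 1 lower and 0 in the same lines. Over all probe sets these comparisons called 0.0308%, 0.044% and 2.84% (2.26% lower) in the cold and 0%, 0.435% (0.404% lower) and 1.12% without stress. At an unadjusted p below 0.05, 7, 7 and 12 of the 33 passed in the cold and 6, 9 and 4 without stress. Of all 22746 probe sets, 1340, 1435 and 3703 passed that cut in the cold and 1038, 2041 and 2694 without stress. Differences were negative for 31 of 33 probe sets in non-stress HF-RPL18 and for all 33 in each of the other 5 comparisons. Among all 22746 probe sets, 11752 to 13194 had a positive difference in these comparisons. With a replicate block, since numbers pair the total and polysomal arrays of HF-RPL18, 5 were lower in the cold and 1 without stress, where 5.02% and 2.2% of all probe sets were called. When the CSP1-IP arrays were also left out the counts were 15 and 4, where 21.3% and 12.8% of all probe sets were called.

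The ribosomal protein gene rpl23 had the largest difference in 5 of the 6 comparisons. In cold HF-RPL18 its polysomal arrays read 9.93, 8.54 and 8.97, against 11.77, 11.05 and 11.56 in total RNA. The groups were separated by more than 1 log2 unit, with a difference of −2.31 (SE 0.44, limma adjusted p = 0.00507). Without stress they read 10.45, 9.45 and 10.15, against 11.77, 11.38 and 11.58, a difference of −1.56 that was not called (limma adjusted p = 0.084). In CSP1-FH the polysomal arrays read 9.10 and 8.81 in the cold and 9.12 and 8.54 without stress, against 10.93 and 11.24 and 11.05 and 11.63 in total RNA. The non-stress difference of −2.51 (SE 0.54, limma adjusted p = 0.0323) was called. Without any 1 of its 4 arrays it was −2.22 to −2.80 and was not called, in fits that leave an arm of 1 array assumed to vary like the other groups. In atcsp1-1 the polysomal arrays read 10.06 and 8.83 in the cold and 10.12 and 9.42 without stress, against 11.18 and 11.18 and 11.83 and 11.31 in total RNA. Every polysomal array of the 3 lines was below every total array of the same group, and the atcsp1-1 differences of −1.74 and −1.80 were not called. The probe set of rpl23 matches 2 plastid entries, since the gene lies in the inverted repeat.

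The protease gene clpP was the other member called in cold HF-RPL18. Its polysomal arrays read 9.28, 8.62 and 9.28, against 11.22, 10.58 and 10.97 in total RNA, a difference of −1.86 (SE 0.39, limma adjusted p = 0.00929) with no overlap. That call was lost without total cold array 1 (−1.71, limma adjusted p = 0.0659) or polysomal cold array 2 (−1.64, limma adjusted p = 0.0641). Without stress clpP stood at −1.79 in atcsp1-1, −1.92 in CSP1-FH and −1.28 in HF-RPL18, none of them called.

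Averaged over the 3 lines, a contrast chosen after values were seen, 7 of 33 probe sets were lower in polysomal RNA in the cold and 7 without stress. Over all probe sets 7.71% and 6.71% were called lower, and 10.6% and 9.98% in either direction. The same 7 genes were called in both conditions. The non-stress call of rps18 (limma adjusted p = 0.0457) was lost with loess (0.0717), with median centring (0.0699) and in 8 of the 14 fits that left out 1 array, and its cold call in 3 of 14. The non-stress call of rpl33 was lost in 4 of 14. The averages were −2.06 in the cold and −1.96 without stress for rpl23 (SE 0.30), −1.58 and −1.66 for clpP, −1.10 and −1.21 for rps4, −1.10 and −1.05 for ccsA, −0.91 and −0.85 for rpl2, −1.04 and −0.78 for rpl33, and −1.0 and −0.84 for rps18. All 33 differences were negative in both, with medians of −0.90 in the cold and −0.79 without stress, while the polymerase genes had 0 of 4 called and medians of −0.51 and −0.61. Without total CSP1-FH array 1 the counts were 12 in the cold and 14 without stress. Plastid photosynthesis genes had 8 of 33 lower in the cold and 10 without stress, and nuclear plastid ribosomal protein genes had 0 of 10 called in either direction in both conditions.

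The change of the polysomal against total difference with cold was also tested in each line. No member was called in any line, 0% of all probe sets were called, and at an unadjusted p below 0.05 none of the 33 passed. Of all 22746 probe sets only 123 in HF-RPL18, 46 in atcsp1-1 and 55 in CSP1-FH passed that cut, so the members did not stand apart. The largest differences were those of rps16 in HF-RPL18 (−1.09), rps12 (244939_at) in atcsp1-1 (0.67) and ycf1 in CSP1-FH (0.94), each with an SE of 0.79 or more.

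**Figure D3:**
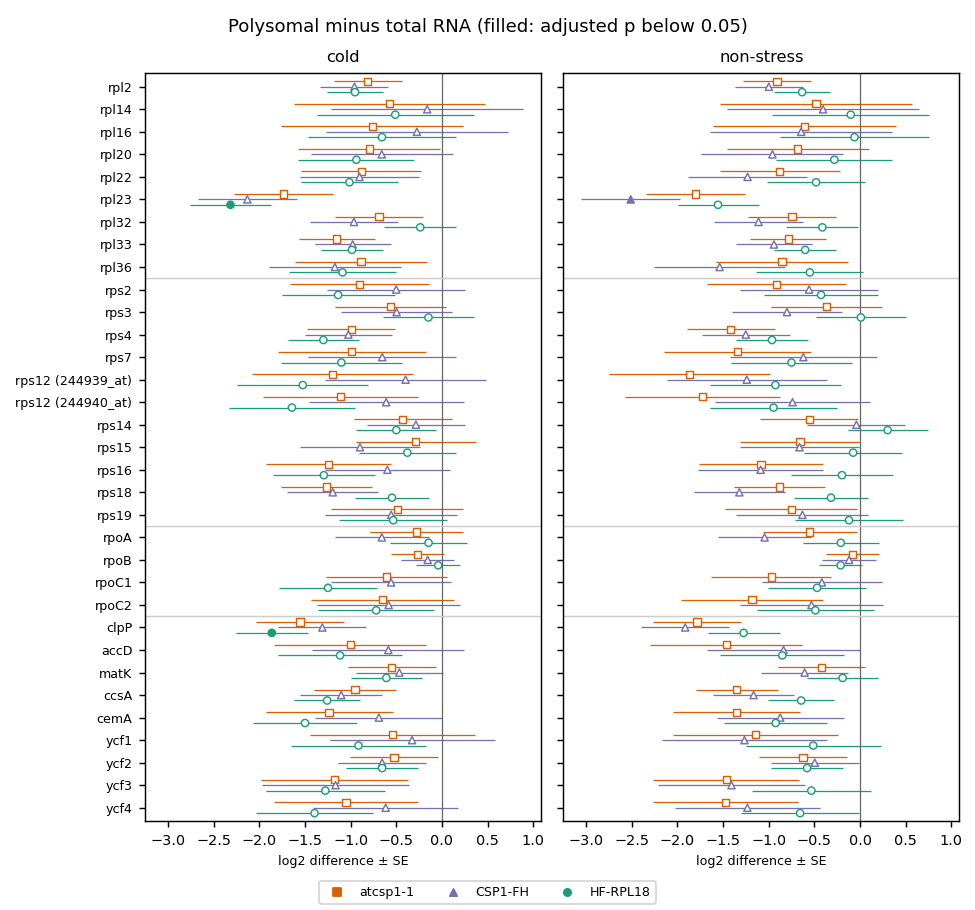
Difference of polysomal minus total RNA (x axis, log2, bars are ± SE) for each of the 33 probe sets (y axis, grouped by role), in the cold (left) and without stress (right), for atcsp1-1, CSP1-FH and HF-RPL18. Almost all points lie left of 0, and the filled ones, with a limma adjusted p below 0.05, are rpl23 (−2.31) and clpP (−1.86) in cold HF-RPL18 and rpl23 (−2.51) in non-stress CSP1-FH.

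In single lines cold lowered 1 member, rpl33, in polysomal RNA of HF-RPL18. In total RNA 0 of 33 were called in atcsp1-1, CSP1-FH and HF-RPL18, while 7.15%, 5.69% and 10.8% of all probe sets were called, and 1, 0 and 1 passed an unadjusted p below 0.05. Of all 22746 probe sets, 3872, 3533 and 4546 passed that cut. Medians of the members were −0.23, −0.15 and −0.10. In polysomal RNA 0, 0 and 1 were called, with 6.28%, 4.58% and 9.06% over all probe sets (4.85% lower in HF-RPL18). At an unadjusted p below 0.05, 1, 0 and 2 members passed, against 3586, 3043 and 4354 of all 22746 probe sets. Medians of the members were −0.07, 0.08 and −0.55. With the replicate block, the counts in HF-RPL18 were 2 in polysomal and 1 in total RNA, where 11.6% and 13.1% of all probe sets were called. When CSP1-IP arrays were also left out they were 6 and 2, where 23.7% and 24.3% were called.

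The gene rpl33 encodes a large-subunit protein that tobacco can do without at normal temperature, while tobacco plants lacking it are sensitive to cold. In polysomal RNA its cold arrays read 7.39 and 7.85 in atcsp1-1, 7.55 and 7.81 in CSP1-FH and 8.00, 8.22 and 7.81 in HF-RPL18, against non-stress arrays of 8.43 and 9.27, 8.68 and 8.31, and 9.57, 9.04 and 9.31. In total RNA its cold arrays read 8.58 and 8.96 in atcsp1-1, 8.34 and 8.98 in CSP1-FH and 9.39, 8.73 and 8.86 in HF-RPL18, against non-stress arrays of 9.85 and 9.41, 9.19 and 9.68, and 9.97, 9.92 and 9.83. Cold arrays lay below non-stress arrays of the same line in both pools and all 3 lines.

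The polysomal differences of rpl33 were −1.23 in atcsp1-1 (SE 0.42, limma adjusted p = 0.0802), −0.81 in CSP1-FH (SE 0.42, limma adjusted p = 0.422) and −1.29 in HF-RPL18 (SE 0.34, limma adjusted p = 0.0126). That call was lost without polysomal non-stress array 1 (−1.16, limma adjusted p = 0.0644) or cold array 3 (−1.19, limma adjusted p = 0.0561). The total differences were −0.86, −0.78 and −0.91, and none was called. The total difference in HF-RPL18 had a limma adjusted p of 0.0921, which became 0.036 with the replicate block and 0.0103 without the CSP1-IP arrays. Averaged over the 3 lines, rpl33 fell by 1.11 on the log2 scale in polysomal RNA (SE 0.23, limma adjusted p = 0.000486) and by 0.85 in total RNA (SE 0.23, limma adjusted p = 0.00557), where 20.2% and 23.2% of all probe sets were called (11.5% and 12.4% lower). Both averages were called without each of the 14 arrays in turn. Relative to the plastid median the averages were −0.86 (limma adjusted p = 0.273) and −0.69 (limma adjusted p = 0.497).

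The small-subunit gene rps18 follows rpl33 directly in the plastid gene order and showed the next largest difference in polysomal HF-RPL18. Its polysomal cold arrays read 6.57 and 7.40 in atcsp1-1, 6.24 and 7.5 in CSP1-FH and 7.40, 7.74 and 7.61 in HF-RPL18, against 7.98 and 7.92, 6.81 and 7.74, and 9.00, 7.83 and 8.92 without stress. The groups overlapped in CSP1-FH and were separated in the other 2 lines. The differences were −0.96, −0.41 and −1.0, none of them called, and the average over lines fell by 0.79 (SE 0.27, limma adjusted p = 0.0374). That average call was lost without each of 8 of the 14 arrays (limma adjusted p up to 0.192) and after median centring (−0.73, limma adjusted p = 0.059). In total RNA rps18 stood at −0.59 in atcsp1-1, −0.53 in CSP1-FH and −0.77 in HF-RPL18, with an average of −0.63 (limma adjusted p = 0.101). The next gene in that order, rpl20, stood at −0.23, −0.03 and −0.04 in total RNA of the same lines. The open reading frame ycf1 had differences of −0.72 and −0.91 in total RNA of atcsp1-1 and CSP1-FH, with an SE of 0.90 in each.

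**Figure D4:**
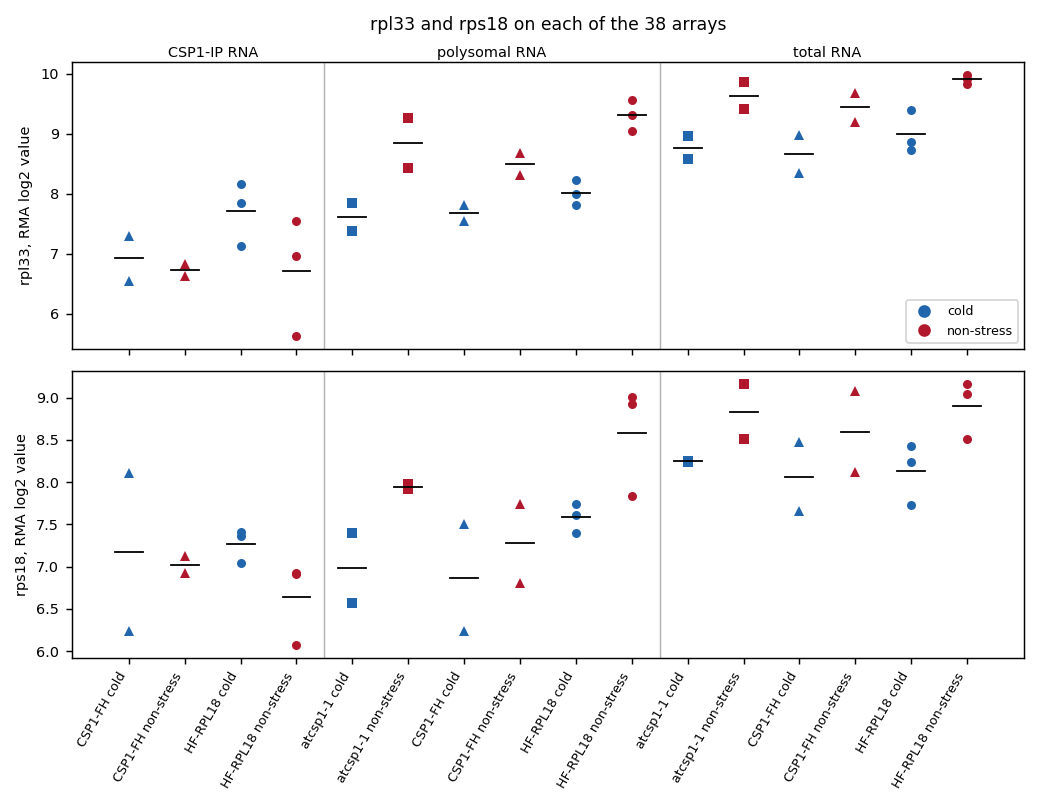
RMA log2 values (y axis) of rpl33 (upper) and rps18 (lower) on each of the 38 arrays by pool, line and condition (x axis). Points are arrays and horizontal lines are group means. Cold points of rpl33 lie below non-stress points of the same line in polysomal and total RNA, and in CSP1-IP RNA of HF-RPL18 they span 7.12 to 8.16 against 5.63 to 7.54.

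The other members followed throughout had no call for cold in total RNA. In HF-RPL18 the total differences were −0.23 for rpl2, −0.08 for rps4, −0.52 for rpoA and −0.06 for matK, with SE of 0.30 to 0.42. In the related lists, 0 of 33 plastid photosynthesis genes and 0 of 11 ndh genes were called in total RNA of HF-RPL18, and 1 of 10 nuclear plastid ribosomal protein genes was higher.

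In CSP1-IP RNA of HF-RPL18, 12 of 33 probe sets were higher in the cold. All 33 differences were positive, with a median of 1.12, while 28.5% of all probe sets were called (13.7% higher). The 12 were 5 of 9 large-subunit genes (rpl2, rpl20, rpl23, rpl33 and rpl36), 3 of 11 small-subunit probe sets (rps3, rps4 and rps19), rpoC1 and rpoC2 of the polymerase, and ccsA and ycf3. The small-subunit gene rps19 read 11.25, 10.84 and 10.77 in the cold, against 10.23, 8.34 and 8.25 without stress, a difference of 2.02 (SE 0.59, limma adjusted p = 0.0122). For rps4 the arrays read 11.23, 11.60 and 11.52, against 10.72, 9.62 and 9.65, a difference of 1.45 (SE 0.39, limma adjusted p = 0.00715). For rpoC2 they read 7.90, 7.13 and 7.80, against 6.48, 5.43 and 5.44 (1.83, SE 0.64, limma adjusted p = 0.0332). In each of these genes the cold arrays did not overlap the non-stress arrays, of which array 1 was the highest.

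**Figure D5:**
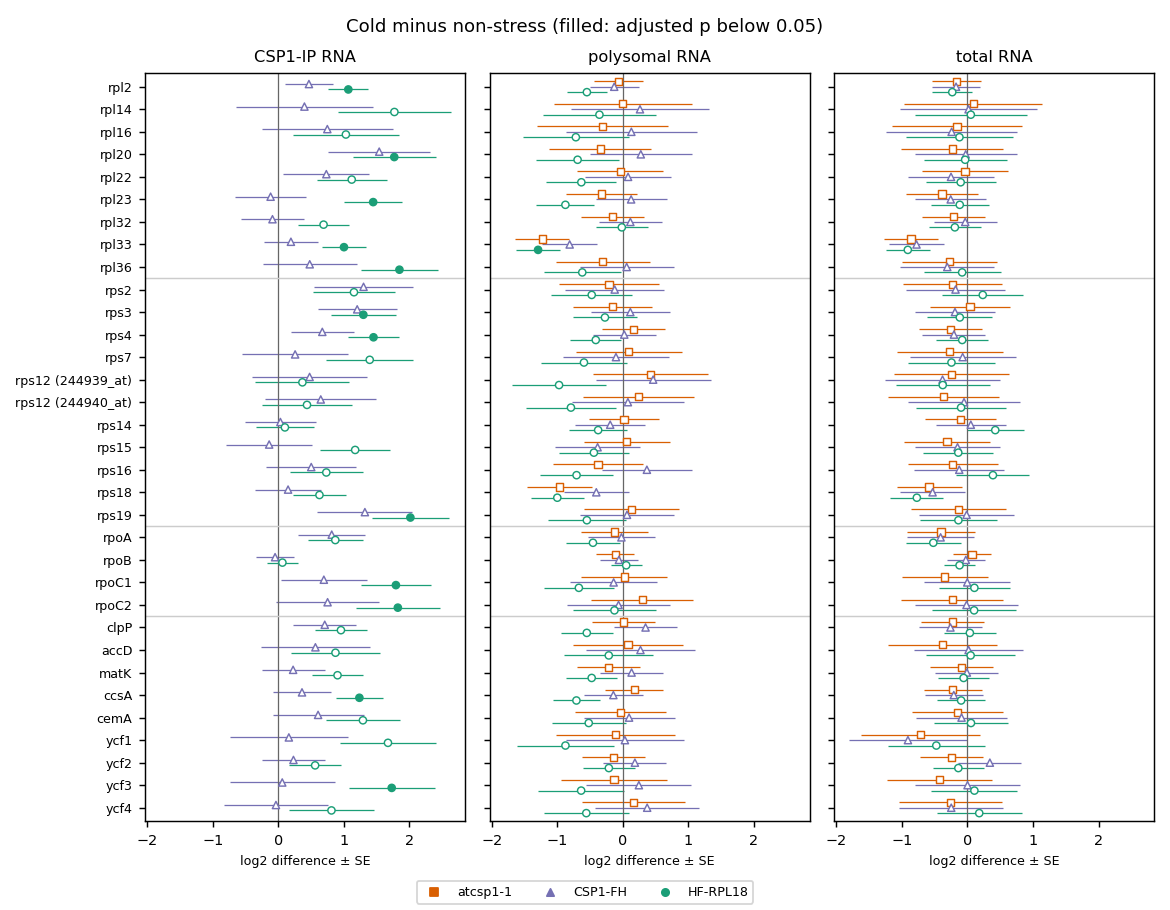
Difference of cold minus non-stress (x axis, log2, bars are ± SE) for each of the 33 probe sets (y axis, grouped by role) in CSP1-IP, polysomal and total RNA (left to right), for atcsp1-1, CSP1-FH and HF-RPL18. In CSP1-IP RNA of HF-RPL18 all points lie right of 0 and 12 are filled (limma adjusted p below 0.05), and in polysomal RNA rpl33 of HF-RPL18 (−1.29) is filled.

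These calls depended on single arrays and on scaling. Without CSP1-IP non-stress array 3 there were 2, and 4 were called in a fit of the compared groups alone, none with array weights, and none relative to the plastid median, a scale on which 44.3% of all probe sets were called and rpl33 stood at −0.30 and rpl2 at −0.24. In CSP1-FH 28 of 33 differences were positive with a median of 0.48, and 0 were called (8.65% of all probe sets). At an unadjusted p below 0.05, 0 of the 33 passed, against 5286 of all 22746 probe sets. The largest there were rpl20 (1.54) and rps19 (1.32). In CSP1-IP of HF-RPL18, 13 of 33 plastid photosynthesis genes and 3 of 11 ndh genes were higher in the cold, and the nuclear plastid ribosomal protein genes had 1 higher and 3 lower.

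The test of whether the CSP1-IP against total difference itself changed with cold called 1 member, rpl33 in HF-RPL18, where 4.48% of all probe sets were called (1.97% higher). Its CSP1-IP arrays read 7.85, 8.16 and 7.12 in the cold and 7.54, 6.96 and 5.63 without stress, and overlapped. The CSP1-IP minus total difference was −1.28 in the cold and −3.20 without stress, a change of 1.91 (SE 0.48, limma adjusted p = 0.0225). The call was lost without CSP1-IP non-stress array 3 (1.37, limma adjusted p = 0.0616), total cold array 2 (1.78, limma adjusted p = 0.061) or total cold array 3 (1.85, limma adjusted p = 0.051), in a fit of the compared groups alone (limma adjusted p = 0.19) and with array weights (limma adjusted p = 0.154). The change was positive for 32 of 33 probe sets, with a median of 1.31. In CSP1-FH no member was called (0.101% of all probe sets), and the value for rpl33 was 0.97 (SE 0.59, limma adjusted p = 0.641). Its CSP1-IP arrays there read 6.56 and 7.29 in the cold and 6.63 and 6.83 without stress.

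The lines were compared with HF-RPL18 in each pool and condition. No member was called in any of the 10 comparisons, in which 0.0044% to 0.00879% of all probe sets were called in polysomal and total RNA and 7.22% (cold) and 3.63% (non-stress) in CSP1-IP RNA, nor in the 2 tests of whether the CSP1-IP against total difference differed between CSP1-FH and HF-RPL18 (0.0572% in the cold and 0.0264% without stress). In atcsp1-1 the medians against HF-RPL18 were −0.03 in cold and −0.46 in non-stress polysomal RNA, and −0.23 in cold and 0.02 in non-stress total RNA. None of the members passed an unadjusted p below 0.05, and the share of all probe sets passing that cut is not given here. The largest differences in atcsp1-1 were those of rps12 (244939_at) in non-stress polysomal RNA (−1.35, SE 0.80), and of rpl14 (−0.45) and rps12 (244940_at, −0.53) in non-stress and cold total RNA.

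In CSP1-FH the medians against HF-RPL18 were −0.68 and −0.01 in cold and non-stress CSP1-IP RNA, −0.62 and −1.10 in polysomal RNA and −0.84 and −0.60 in total RNA. At an unadjusted p below 0.05, 11 probe sets passed in non-stress polysomal RNA, 6 in cold CSP1-IP RNA, 2 in each condition of total RNA, and 0 in the remaining comparisons. None was called after adjustment. The share of all probe sets passing the unadjusted cut is not given here, so these counts are not read as a line difference of the members. The largest differences were those of rps12 (244939_at) in non-stress polysomal RNA (−2.10, SE 0.80), of ycf3 and rpl36 in cold CSP1-IP RNA (−1.98 and −1.97, limma adjusted p = 0.093 and 0.0635) and of rps12 (244940_at) in total RNA (−1.83 in the cold and −1.88 without stress). Without CSP1-FH replicate 1 the medians in total RNA were −0.15 in the cold and 0.12 without stress, and in non-stress polysomal RNA −1.18. The cold value of rpl33 in CSP1-FH against HF-RPL18 was −0.79 in CSP1-IP, −0.33 in polysomal and −0.34 in total RNA.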

How the data were processed

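Total, polysomal and CSP1-IP RNA of Arabidopsis rosettes was measured on 38 Affymetrix ATH1 arrays. The authors deposited log2 values, 1 per probe set and array. RMA is named by the submitters' processing notes, and its version, and which arrays it was run on together, were not given in the sources used here. Polysomal RNA came from sucrose gradients and CSP1-IP RNA from formaldehyde cross-linked leaves on antibody-coated beads, and labelling used a 3′ IVT kit, as the labels' protocols state. Of 22810 probe sets, 64 controls were left out. The annotation gave 1 gene for 13513, several for 503 and no entry for 8730, and 7 member probe sets match 2 plastid entries. Groups came from the sample titles.

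Group means were fitted on all 38 arrays with lmFit and eBayes of limma 3.58.1 in R 4.3.3 (22 residual and 5.22 prior degrees of freedom), with 2-sided p-values and Benjamini-Hochberg adjustment over 22746 probe sets. The fit was run on simulated data with independent noise and 1 SD per probe set in all pools. That check does not cover the shared deviations of plastid genes on an array, unequal spread between pools or pairing. Precision is limited by how many arrays each group has. The members and lists were chosen with earlier results of these data known. The naming rule takes, in each comparison, at most 6 members, those of largest difference that passed without array overlap, or the 2 largest where fewer than 2 passed, members called against the median's direction, and rpl33, rpl2, rps4, rpoA and matK throughout. Same-numbered arrays of total and polysomal RNA of HF-RPL18 deviated together (correlations of deviations 0.19 to 0.73 over 18 pairs), and those of CSP1-IP did not throughout (lowest −0.11). Same-numbered arrays had correlations of 0.08 to 0.51 over 12 pairs in atcsp1-1 and −0.03 to 0.59 over 30 pairs in CSP1-FH. With 2 arrays a group, numbers were not taken as pairs in these lines, and pairing there was not settled. Gene order was taken from RefSeq (TAIR10.1) for names only. A list of plastid transcription genes held sigma factors, nuclear polymerases and polymerase-associated proteins, and 1 of its 20 had a named probe set. So had 1 of 10 plastid RNA-binding proteins and ribonucleases and 0 of 4 nuclear acetyl-CoA carboxylase subunits. The alternatives tried were other array sets, array weights, a replicate block, loess, centring on the median of all or of plastid probe sets, a dim filter, no s_at and x_at probe sets, and each array left out in turn.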

Additional observations from a re-analysis of the deposited data

Results flagged for a closer look

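In HF-RPL18 the CSP1-IP against total difference of rpl33 moved with cold by a test of the difference itself, by 1.91 on the log2 scale (SE 0.48, limma adjusted p = 0.0225). Relative to the median of the plastid genes on each array the same change was 0.53 (limma adjusted p = 0.559), and over arrays left out in turn it was lost in 3 of 12 fits.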

How the results depend on the processing

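The counts of members called moved by over 1.5 times as follows, and no cause was tested. Each value is the number called of 33 (of 28 without s_at and x_at probe sets), with averages over lines named as such; the plastid-centred, left-out CSP1-FH replicate 1 and block-without-CSP1-IP settings and the averages were chosen after seeing the data. Without CSP1-IP arrays: cold in HF-RPL18 polysomal 2 and total 1, cold in atcsp1-1 polysomal 1, polysomal against total 6 in cold and 2 in non-stress HF-RPL18, 2 and 3 in CSP1-FH, and 12 in the non-stress average. In the compared groups alone: cold CSP1-IP 4 and total 1 in HF-RPL18, total average 2, polysomal against total 8 in cold HF-RPL18, 0 in non-stress CSP1-FH and 11 in the cold average, CSP1-IP against total 2 in cold and 9 in non-stress CSP1-FH, and its cold change 0. With array weights: cold CSP1-IP 0 and total 1 in HF-RPL18, 1 each for polysomal and total in atcsp1-1, total average 2, polysomal against total 3 and 1 in cold and non-stress atcsp1-1, 2 and 3 in CSP1-FH, 6 and 2 in HF-RPL18 and 15 and 14 in the averages, CSP1-IP against total 10 in non-stress CSP1-FH, 5 in cold HF-RPL18 and 8 in the cold average, CSP1-IP against polysomal 0 in the cold, and the cold change of CSP1-IP against total 0. With the replicate block: cold CSP1-IP 20, polysomal 2 and total 1 in HF-RPL18, polysomal 1 in atcsp1-1, total average 2, polysomal against total 2 in non-stress CSP1-FH, 5 and 1 in cold and non-stress HF-RPL18 and 15 in both averages, CSP1-IP against polysomal 11 in the cold, and the cold change 3. With the block and without CSP1-IP arrays: cold polysomal 2, 1 and 6 in atcsp1-1, CSP1-FH and HF-RPL18, total 1 in atcsp1-1, 2 in HF-RPL18 and 3 in the average, and polysomal against total 5 and 5 in cold and non-stress atcsp1-1, 6 and 10 in CSP1-FH, 15 and 4 in HF-RPL18 and 22 in both averages. Numbers were taken to pair arrays only in total and polysomal RNA of HF-RPL18, and pairing in the lines with 2 arrays a group was not settled. Calls over all 22746 probe sets also change with the setting, so a moved count is not read as a result about the members. In the main fit, with array weights and with the replicate block, these calls were 6491, 725 and 7194 for cold CSP1-IP of HF-RPL18. They were 10819, 5508 and 11379 for cold CSP1-IP against polysomal, and 2409, 6312 and 3087 for polysomal against total in the cold average.

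Relative to the plastid median: 0 for cold in CSP1-IP and polysomal HF-RPL18 and in both averages, CSP1-IP against total 12 in cold CSP1-FH and 15 in non-stress HF-RPL18, polysomal against total 0 in cold HF-RPL18 and non-stress CSP1-FH and 1 in both averages, and the cold change 0. That setting adds 1 constant per comparison to every probe set, which alone turned these signs. In cold CSP1-IP of HF-RPL18, rpl2 was −0.24 and rpl33 −0.30. For CSP1-IP against total, rpl2, rps4, rpoA and matK were 0.63, 1.32, 1.85 and 2.60 in non-stress HF-RPL18, 0.028, 1.10, 1.17 and 2.57 in non-stress CSP1-FH and 0.33, 1.21, 1.51 and 2.58 in the non-stress average. In the cold rpl2, rpl33 and rps4 were 0.54, 0.52 and 1.46 in HF-RPL18, rpoA 1.53 in CSP1-FH, and rpl2, rpl33, rps4 and rpoA 0.17, 0.26, 1.29 and 1.69 in the average. Against polysomal RNA without stress, rpl2, rpl33, rps4, rpoA and matK were 0.75, 0.083, 1.77, 1.55 and 2.28. With loess: CSP1-IP against total 4 and 9 in cold and non-stress CSP1-FH and 8 in cold HF-RPL18 (1 higher and 7 lower), against polysomal 13 without stress, CSP1-FH against HF-RPL18 in cold CSP1-IP 1, and the cold polysomal average 1. Median centring gave 4, 1 and 1 for cold CSP1-IP against polysomal, CSP1-FH against HF-RPL18 in cold CSP1-IP and the cold polysomal average. Without s_at and x_at probe sets, which removes rpl23 itself, polysomal against total was 1 in cold HF-RPL18 and 0 in non-stress CSP1-FH. Without CSP1-FH replicate 1, which sets 1 array against 1, cold CSP1-IP was 2, polysomal against total 0 without stress and CSP1-IP against total 3 in the cold. The dim filter moved no count.

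With each array left out in turn, counts were 0 to 1 for cold polysomal HF-RPL18, 1 to 2 for its average, and 2 to 13 (HF-RPL18) and 0 to 3 (CSP1-FH) for cold CSP1-IP. For CSP1-IP against total they were 10 to 14 and 20 to 25 in cold and non-stress HF-RPL18, 4 to 13 and 7 to 21 in CSP1-FH, and 12 to 20 and 20 to 28 in the averages. The 13 came without CSP1-IP cold array 2, the 4 without CSP1-IP cold array 1 and the 7 without total array 2. Against polysomal RNA they were 3 to 8 and 13 to 23, the 13 without CSP1-IP non-stress array 3 and the 3 without polysomal cold array 1 or CSP1-IP cold array 1. Polysomal against total gave 1 to 2 in cold HF-RPL18, 0 in non-stress CSP1-FH, and 6 to 12 and 5 to 14 in the averages. The cold change of CSP1-IP against total gave 0 to 3, and CSP1-FH against HF-RPL18 in cold CSP1-IP 0 to 7, the 7 without CSP1-FH cold array 2.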
